A study of Caenorhabditis elegans with 2 samples.

Results

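CHD-7 peaks were examined at 62 genes of the translation machinery in Caenorhabditis elegans, out of 19973 nuclear protein-coding genes. The genes were taken by name from the Ensembl annotation. They were those starting with eef- or eif-, named for translation elongation and initiation factors, and those of 1 letter followed by ars-1 or ars-2, which encode aminoacyl-tRNA synthetases. They comprised 31 translation factor genes, 6 named for elongation and 25 for initiation, and 31 synthetase genes. Roles were taken from the names alone, so a gene counted under initiation, such as eif-4A3 or eif-6, need not act there. CHD-7 is the worm member of the CHD family of chromatin-remodelling ATPases. Its binding was measured by chromatin immunoprecipitation and sequencing (ChIP-seq) in whole worms of strain OP609, with the genotype unc-119(tm4063) III; wgIs609. The integrated transgene wgIs609 makes CHD-7 with a GFP-FLAG tag at its C-terminus, and an antibody against GFP was used for precipitation. Both sexes were pooled as young adults, 67 hours after synchronization as starved L1 larvae. There was 1 group of 2 biological replicates, all of the same strain, age and transgene, and no untagged or mutant group, so no difference between conditions could be tested. A peak in whole worms does not tell strong binding in few cells from weak binding in many.

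Translation begins when initiation factors bring the initiator tRNA and the messenger RNA to the small ribosomal subunit. The factor eIF2 carries the initiator tRNA, eIF2B recharges eIF2 with GTP, and eIF3 is a large scaffold on the small subunit. During elongation, eEF1A delivers each aminoacyl-tRNA to the ribosome, the eEF1B subunits recharge eEF1A with GTP, and eEF2 drives the movement of the ribosome along the message. Synthetases join each amino acid to its tRNA. In worm gene names, the ars-1 form often denotes the cytosolic enzyme and the ars-2 form the mitochondrial one. The naming has exceptions and some enzymes serve both compartments, so a name alone, such as aars-1, does not give the compartment.

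The authors' reproducible list held 1884 peaks, and their pooled list held 30000 entries, most of which are weaker candidates. The reproducible peaks were the 1884 pooled entries of highest signal, and a peak on this list could rank low in 1 replicate. How the cutoff was set is not known here. Signal is the authors' value for a peak and was used here only for its rank within a list, 1 being the highest. Library depth is unknown, because the lists carry no read counts. The promoter window of a gene is taken as the 1000 bp before its annotated 5′ end and the first 200 bp after it, and the gene body as the rest of the gene. At chd-7 itself, which the transgene also carries, 3 reproducible summits lay within the gene and 1000 bp around it, the best at rank 232, whereas unc-119 had 0.

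Of the 62 translation genes, 8 had a reproducible summit in the promoter window, 12.9%, against 4.18% of all coding genes. They were 4 of the 6 elongation factor genes (66.7%), 2 of the 25 initiation factor genes (8%) and 2 of the 31 synthetase genes (6.45%). The genes were eef-1A.1, eef-1A.2, eef-1G and eef-2 for elongation, eif-2Bgamma and eif-3.C for initiation, and aars-1 and ears-2 among the synthetases. The elongation factor genes had the highest share of the 3 roles, and initiation factors and synthetases stood nearer to the share of all coding genes. The summits of eef-1A.1, eef-1G and eef-2 also lay in the promoter window of a neighbouring gene, as described below. These are counts of few genes in 1 set of samples and were not tested.

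**Figure D1:**
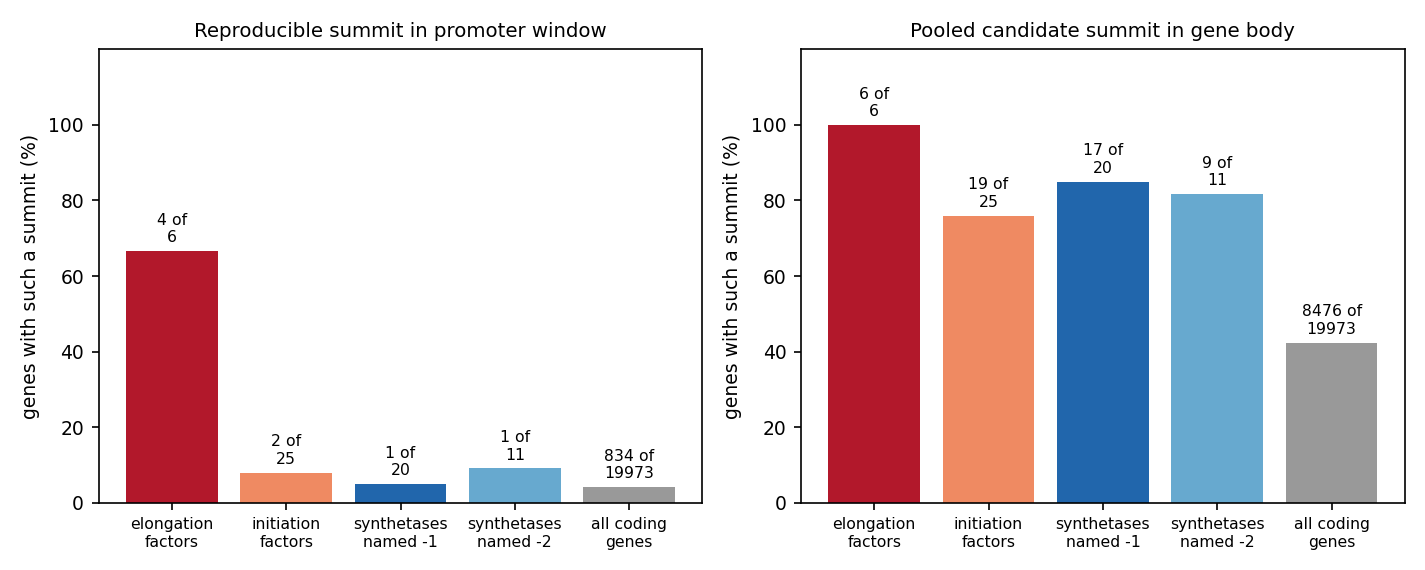
Percent of genes (y axis, 0 to 100) with a reproducible CHD-7 summit in the promoter window (left) and with any pooled candidate summit in the gene body (right), by role (x axis), with all coding genes last; the counts stand above the bars. The elongation factors stand apart at promoters, with 4 of 6 genes, whereas the gene body shares of the 4 roles all lie between 76% and 100%.

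The DNA under the peaks that carry these counts is shown for the promoters of eef-1A.1, eef-1A.2, eef-1G, aars-1, ears-2 and eif-2Bgamma, read in the direction of the gene. Each stretch lies within 75 bp of the summit on WBcel235, the sequence of the ce11 build, and stops short of coding-gene exons. In the first 5, capitals mark GAGAGA, the 1 searched motif met in 3 of the 8 promoter peaks. In that of eif-2Bgamma, capitals mark the bases inside the small nuclear RNA gene sup-39.
eef-1A.1 (chrIII:6972008-6972158, minus strand, 446 to 296 bp upstream): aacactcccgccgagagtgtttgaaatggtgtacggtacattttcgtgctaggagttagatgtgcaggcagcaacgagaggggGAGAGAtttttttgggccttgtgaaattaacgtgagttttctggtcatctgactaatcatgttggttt
eef-1A.2 (chrX:7823196-7823346, plus strand, 458 to 308 bp upstream): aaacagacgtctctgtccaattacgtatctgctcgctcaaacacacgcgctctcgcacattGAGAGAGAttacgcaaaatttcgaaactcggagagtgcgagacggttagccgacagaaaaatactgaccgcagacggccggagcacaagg
eef-1G (chrV:10965618-10965718, plus strand, 101 to 1 bp upstream): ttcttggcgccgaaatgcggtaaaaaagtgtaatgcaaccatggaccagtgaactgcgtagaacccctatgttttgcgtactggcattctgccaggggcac
aars-1 (chrII:11464536-11464686, minus strand, 189 to 39 bp upstream): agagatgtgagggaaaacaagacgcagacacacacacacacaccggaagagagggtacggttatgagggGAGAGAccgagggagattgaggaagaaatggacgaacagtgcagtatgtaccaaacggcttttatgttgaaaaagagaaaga
ears-2 (chrIV:390469-390558, minus strand, 90 to 1 bp upstream): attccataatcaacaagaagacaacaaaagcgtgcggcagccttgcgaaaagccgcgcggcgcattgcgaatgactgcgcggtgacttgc
eif-2Bgamma (chrII:6968477-6968627, minus strand, 979 to 829 bp upstream): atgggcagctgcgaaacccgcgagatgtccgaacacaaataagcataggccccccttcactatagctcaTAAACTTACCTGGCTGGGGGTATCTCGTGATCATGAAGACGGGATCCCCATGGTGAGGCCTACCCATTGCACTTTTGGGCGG

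Short motifs were searched on both strands in windows of 151 bp centred on the summits. They were TTTCAG, which resembles a worm splice acceptor, the GA repeat GAGAGA, the E-box CACGTG, the GATA-type site TGATAA, the TATA-box form TATAAA and the core GGTTCGA of the B box in tRNA genes. No motif contains another. GAGAGA occurred in 37.5% of the 8 promoter windows of the translation genes (eef-1A.1, eef-1A.2 and aars-1), in 30.3% of the windows of all 1884 reproducible peaks, and in 12.9% of the stretches of the same length just upstream of all coding genes. TTTCAG occurred in 25% of the 8 windows (eif-3.C and eef-1G) and in 11.3% of all reproducible windows, below its share of 50% just upstream of the 62 translation genes and 31% just upstream of all coding genes. The other 4 motifs occurred in 0 of the 12 windows at translation genes, gene bodies included. They occurred in 7.06% to 10.5% of all reproducible windows and in 0.566% (GGTTCGA) to 25.5% (TATAAA) of the stretches upstream of all coding genes. A match is only the presence of these letters. The promoter windows had a median GC content of 47%, close to the 47.7% of all reproducible peaks, against 33.1% just upstream of all coding genes.

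The elongation factor genes held the strongest promoter peaks of the 62. The highest was at eef-1A.2, 1 of the pair of genes for eEF1A, at chrX:7823174-7823289, with its summit 383 bp upstream of the gene. Its pooled signal was 417 (rank 198), with rank 248 in replicate 1 (signal 192) and rank 153 in replicate 2 (signal 233). The peak of the other eEF1A gene, eef-1A.1, whose promoter is widely used to drive transgenes in worms, lay at chrIII:6971933-6972255 with its summit 371 bp upstream. It had a pooled signal of 291 (rank 476), with rank 1236 in replicate 1 (signal 108) and rank 207 in replicate 2 (signal 205). Both replicates therefore placed both eEF1A promoters among their 1884 strongest entries, eef-1A.2 high in both and eef-1A.1 higher in replicate 2. The summit of eef-1A.1 also lay in or within 100 bp of the annotated microRNA gene cel-mir-5549. The coding sequences of the pair, each 1389 bp long, were 94% identical, with a longest identical run of 53 bp, whereas their promoter peaks shared at most 8 bp in a row.

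The peak of eef-1G, the gamma subunit of eEF1B, lay at chrV:10965618-10965748 with its summit 26 bp upstream. It had a pooled signal of 352 (rank 290), with rank 411 in replicate 1 (signal 162) and rank 265 in replicate 2 (signal 189). The peak of eef-2, at chrI:9163454-9163553 and 37 bp upstream, had a pooled signal of 337 (rank 323), with rank 733 in replicate 1 (signal 130) and rank 185 in replicate 2 (signal 213). Both peaks lay next to the start of the gene, and that of eef-2 was the higher of the pair in replicate 2. Neither gene for the nucleotide-exchange subunits of eEF1B had a reproducible promoter summit. The stronger of the promoter candidates at eef-1B.1 lay 697 bp upstream, inside an intron of the aconitase gene aco-2. It ranked 4152, with rank 9147 in replicate 1 and 3875 in replicate 2. The other, 61 bp upstream of eef-1B.1 and 270 bp upstream of aco-2, ranked 18078, with rank 11840 in replicate 1 and 13230 in replicate 2. The promoter candidate at eef-1B.2, 215 bp upstream, ranked 22219, with rank 18439 in replicate 1 and 8291 in replicate 2. In promoter windows the exchange subunit genes thus lay well below the end of the reproducible list, unlike their partner eef-1G. In gene bodies, eef-1B.2 and eef-1G each had a reproducible summit, described below.

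**Figure D2:**
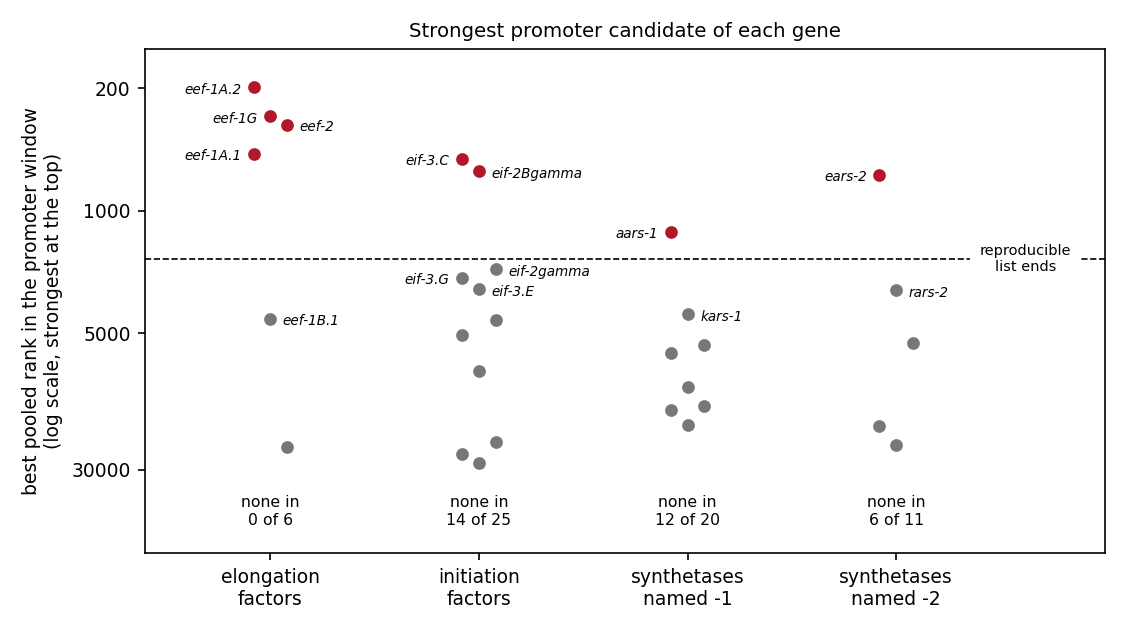
Best pooled signal rank (y axis, log scale, highest signal at the top) of a candidate summit in the promoter window of each gene, by role (x axis); red points are reproducible, grey points are not, and the dashed line is the last of the 1884 reproducible ranks. The 4 red elongation factor points include the 3 highest of the 62 genes, at ranks 198, 290 and 323, and genes without a candidate are counted at the bottom.

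Among 25 initiation factor genes, eif-3.C and eif-2Bgamma had a reproducible promoter summit. The peak of eif-3.C, a core subunit of eIF3, lay at chrI:9979691-9980080, 224 bp upstream, with a pooled signal of 285 (rank 506), rank 903 in replicate 1 (signal 121) and rank 379 in replicate 2 (signal 164). It was in no other coding gene's window and was kept under all 10 alternative settings. The peak assigned to eif-2Bgamma, a subunit of eIF2B, had a pooled signal of 265 (rank 597), rank 717 in replicate 1 (signal 132) and rank 605 in replicate 2 (signal 136). Its summit was 904 bp upstream, farther than that of the other 7 genes, which all lay within 400 bp. The other 10 genes named eif-3 and the other 9 named eif-2 had 0 reproducible promoter summits, as had eif-1, eif-1.A, eif-4A3 and eif-6.

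The eif-2Bgamma summit lay inside the annotated small nuclear RNA gene sup-39 (chrII:6968394-6968558, minus strand), within an intron of the upstream gene C15F1.5. The capitals in the sequence of this peak show the edge of that RNA gene at the summit. Of 60 stretches of 36 bases taken every 6 bases along this peak, 15 occurred elsewhere in the genome, so reads there may have more than 1 origin. For the other 11 reproducible peaks of the translation genes 0 such stretches were repeated. Once summits close to (100 bp or less) an rRNA, tRNA, snRNA or snoRNA gene were left out, 7 translation genes (11.3%) kept a promoter summit, against 3.76% of all coding genes. With summits near microRNA genes left out too, eef-1A.1 also dropped out and 6 genes (9.68%) kept one, against 3.75%.

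Both synthetase promoter peaks lay close to the gene. That of ears-2, for glutamyl-tRNA synthetase, at chrIV:390288-390677 and 15 bp upstream, had a pooled signal of 259 (rank 628), rank 754 in replicate 1 (signal 129) and rank 597 in replicate 2 (signal 137). That of aars-1, for alanyl-tRNA synthetase, at chrII:11464416-11464805 and 114 bp upstream, had a pooled signal of 190 (rank 1325), rank 3320 in replicate 1 (signal 79.3) and rank 1207 in replicate 2 (signal 104). The replicates placed ears-2 alike, whereas aars-1 was outside the 1884 strongest entries of replicate 1, where its −log10 q was 1.40 against 3.52 in replicate 2. By name, 1 of 20 genes of the ars-1 form (5%) and 1 of 11 of the ars-2 form (9.09%) had a reproducible promoter summit.

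All 8 promoter summits ranked higher in replicate 2 than in replicate 1. Candidates outside genes, reproducible or not, leaned the same way over all coding genes, with 56.4% on the side of replicate 2 and 40.7% on that of replicate 1. The share over all reproducible promoter summits was not counted, so this order is not shown to be particular to translation genes. Taking the 1884 strongest entries of each replicate alone, 8 translation genes had a promoter summit in replicate 1, against 3.72% of all coding genes, and 9 in replicate 2, against 4.59%. The promoter window of eif-2gamma, the tRNA-binding core of eIF2, gained a summit in replicate 1 alone, and that of eif-3.G, an RNA-binding subunit of eIF3, in replicate 2 alone.

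The 6 genes next below the reproducible list were eif-2gamma, eif-3.G, eif-3.E, rars-2, kars-1 and eef-1B.1. The lowest reproducible signal was 165.743, and the next pooled entry had 165.724. The candidate of eif-2gamma had a pooled signal of 157 (rank 2160), with rank 1124 in replicate 1 and 10021 in replicate 2, and lay 814 bp upstream of it but 39 bp upstream of tbca-1. That of eif-3.G, 355 bp upstream, had a signal of 149 (rank 2421), with rank 16457 in replicate 1 and 1261 in replicate 2. Each of these 2 candidates was among the 1884 strongest entries of 1 replicate only. That of eif-3.E, another eIF3 subunit, lay 205 bp upstream of it and 543 bp upstream of B0511.17. It had a signal of 142 (rank 2813), with rank 4836 in replicate 1 and 2739 in replicate 2. That of rars-2, for arginyl-tRNA synthetase, lay in a coding exon 11 bp past its 5′ end, with a signal of 141 (rank 2852), rank 2685 in replicate 1 and 4791 in replicate 2. These 2 were of middling rank in both. That of kars-1, for lysyl-tRNA synthetase, had a signal of 126 (rank 3905), with rank 2104 in replicate 1 and 18462 in replicate 2.

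Of the 8 reproducible promoter summits, 5 also lay in the window of a neighbouring gene, which in all 5 cases ran in the opposite direction. The neighbours were rfc-4 for eef-1A.1, ctf-4 for eef-1G, clsp-1 for eef-2, rga-1 for aars-1 and uncp-18 for ears-2. The summit was nearer to the translation gene in 4 of the 5 pairs, by 26 against 154 bp for eef-1G, 37 against 228 bp for eef-2, 114 against 283 bp for aars-1 and 15 against 77 bp for ears-2. For eef-1A.1 it was nearer to rfc-4, at 371 against 170 bp. Among all 706 reproducible summits in coding promoter windows, 146 (20.7%) lay in the windows of more than 1 gene. Without shared windows 3 translation genes (4.84%) kept a promoter summit, eef-1A.2, eif-2Bgamma and eif-3.C, against 2.71% of all coding genes. Of the elongation factor genes only eef-1A.2 thus kept one, whereas both initiation factor genes did. Only promoter windows were compared here, and the summit of eif-2Bgamma lay inside sup-39 and an intron of C15F1.5. To which gene of a pair a peak belongs was not tested.

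Many worm genes lie in operons, in which a gene close behind another on the same strand can be transcribed from the promoter of the first. Of the 62 translation genes, 16 (25.8%) had the end of a same-strand coding gene within 500 bp upstream, against 18.1% of all coding genes. A reproducible promoter summit was present in 2 of these 16, eif-2Bgamma and eif-3.C, and in 6 of the other 46. Over all coding genes the shares were 4.98% with such a neighbour and 4% without.

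**Figure D3:**
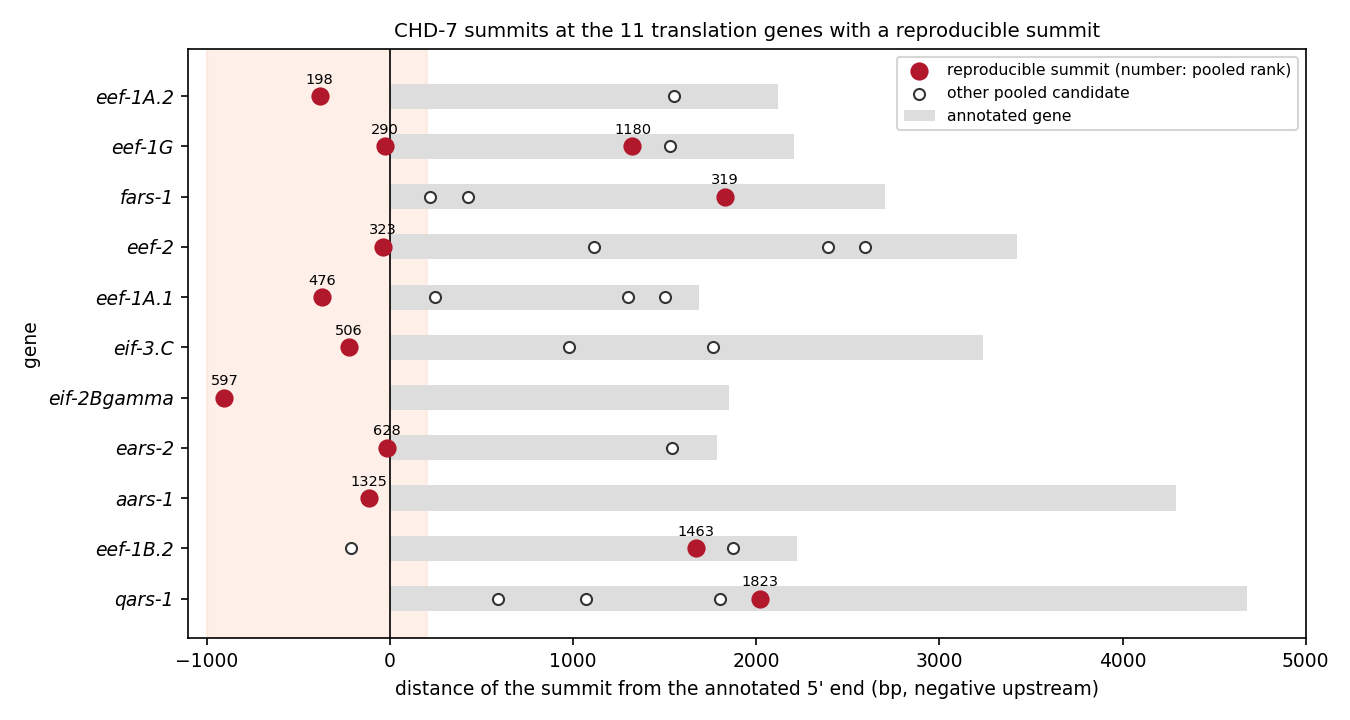
Positions of candidate summits relative to the annotated 5′ end (x axis, bp, negative upstream) at the 11 genes with a reproducible summit (rows, ordered by pooled rank). Red points are reproducible summits with their pooled rank, open points are weaker pooled candidates, the shaded band is the promoter window and the grey bars are the genes. Of the 8 promoter summits, 7 lie within 400 bp upstream and that of eif-2Bgamma lies 904 bp upstream.

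In gene bodies, 4 of the 62 genes had a reproducible summit, 6.45%, against 3.08% of all coding genes. These summits belonged to eef-1G and eef-1B.2 of the elongation factors and to fars-1 and qars-1 of the synthetases, and to 0 initiation factors. The strongest, in an intron of fars-1, a subunit gene of phenylalanyl-tRNA synthetase, lay at chrI:6212793-6212917 with a pooled signal of 338 (rank 319), rank 302 in replicate 1 (signal 179) and rank 502 in replicate 2 (signal 148). It was strong in both replicates and lay in or within 100 bp of the annotated non-coding RNA gene T08B2.14 and the snoRNA gene T08B2.13. It also lay in the promoter window of the neighbouring gene mrpl-23, 972 bp upstream of it, and was lost when summits in shared windows were left out. The summit in a coding exon of eef-1G, at chrV:10966848-10967237, had a signal of 198 (rank 1180), with rank 824 in replicate 1 (signal 125) and rank 3161 in replicate 2 (signal 68.6). That in a coding exon of eef-1B.2, at chrIV:15038805-15039194, had a signal of 183 (rank 1463), with rank 1109 in replicate 1 (signal 112) and rank 3035 in replicate 2 (signal 69.5). Both exonic peaks ranked lower in replicate 2, and that of eef-1B.2 also lay 616 bp upstream of hrpu-1.

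The intronic summit of qars-1, for glutaminyl-tRNA synthetase, at chrIV:15010969-15011358, entered the list last, with a signal of 168 (rank 1823). It met rank 21323 in replicate 1 (signal 39.7, −log10 q 0.336) and rank 599 in replicate 2 (signal 137, −log10 q 3.52), so it rested on replicate 2. With the 5′ ends of all annotated transcripts in place of 1 end per gene, this summit fell in a promoter window of qars-1. Of the 12 reproducible peaks at translation genes, 5 were narrower than the common width of 390 bp, and these were the 5 at eef-1A.2, eef-1A.1, the eef-1G promoter, eef-2 and fars-1. Over all 1884 peaks 309 (16.4%) were narrower.

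Weaker candidates were far more frequent. In the pooled list, 30 of the 62 genes had a candidate in the promoter window, 48.4%, against 30.8% of all coding genes, and 51 had one in the gene body, 82.3%, against 42.4%. In all there were 134 candidates, 35 in windows and 99 in bodies, of which 122 ranked below the reproducible list, with a median pooled rank of 15360. Candidates in the body alone were found at 26 genes, in the window alone at 5 and in both at 25, and 6 genes had none: eif-2Bbeta, eif-2Bepsilon, eif-3.H, eif-3.L, eif-4A3 and yars-1. The translation genes were also longer, with a median of 2713.5 bp against 2027 bp. Per kilobase of gene there were 0.484 body candidates at the translation genes and 0.320 at all coding genes. Gene length here is the whole annotated gene, including the first 200 bp, which are not part of the body. By role the density was 0.948 per kilobase at elongation factors, 0.424 at initiation factors, 0.566 at synthetases of the ars-1 form and 0.307 at those of the ars-2 form. The last of these was close to the density over all coding genes, although 9 of its 11 genes had a body candidate.

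The annotated position of a candidate went along with the replicate that ranked it higher. Position was read here from every coding gene at the summit, a coding exon taking precedence over a UTR and an intron. Some candidates classed as exonic or intronic therefore lay in a neighbouring gene, such as those of eif-1 in exons of pigb-1. Of the 134 candidates, 84 (62.7%) had their summit in a coding exon of some gene, against 48.7% of the candidates at all coding genes. In introns lay 23 (17.2%), against 31.5%. Of the 84 exonic candidates, 63 (75%) ranked higher in replicate 1 or occurred there alone, and 19 (22.6%) did so in replicate 2. Of the 24 candidates outside genes, 17 (70.8%) were on the side of replicate 2 and 6 (25%) on that of replicate 1. Intronic candidates were split 11 to 12. The same order held over all coding genes, with 62% of exonic candidates on the side of replicate 1 and 56.4% of those outside genes on the side of replicate 2. What sets this split was not tested. Of the 134 candidates 28 overlapped another one, so they are not all independent.

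**Figure D4:**
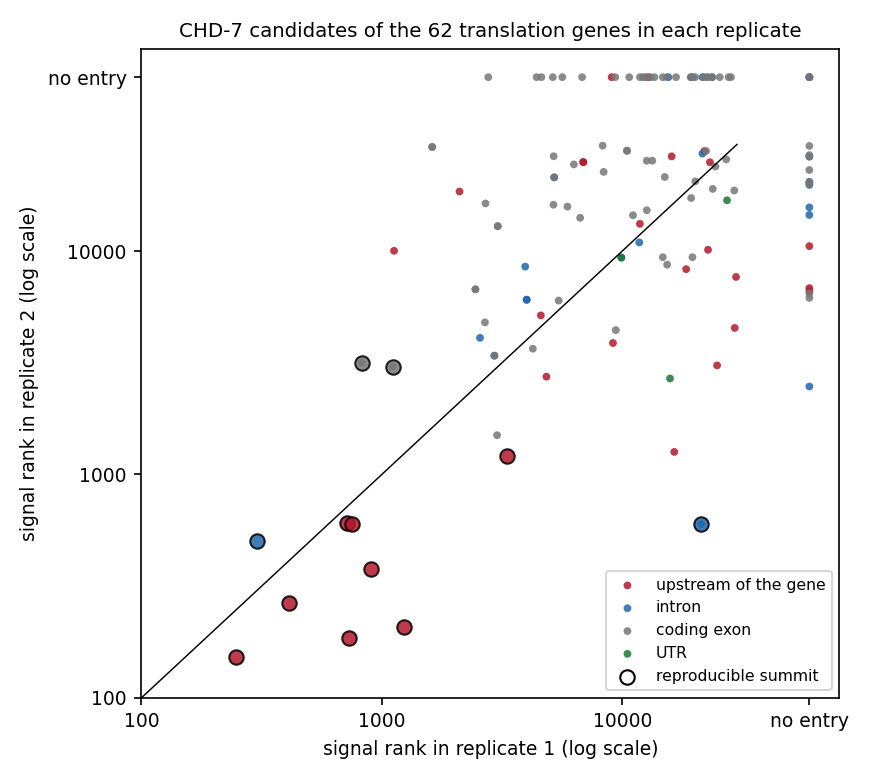
Signal rank in replicate 1 (x axis) and replicate 2 (y axis) of each candidate at the 62 genes, both on log scales with the strongest at the lower left. Colours give the position relative to the translation gene itself, so the classes differ from those counted in the text. Candidates with no overlapping entry in a replicate are set at its edge, and the line marks equal rank. All 8 ringed promoter summits (red) lie below the line, on the side of replicate 2, and the 2 ringed exonic summits (grey) lie above it.

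Other genes of translation and its control, which the naming rule does not take in, were taken from a hand-picked list, of which 36 matched the annotation. Of these 36, 4 (11.1%) had a reproducible promoter summit, against 4.18% of all coding genes. A promoter candidate was present in 19 (52.8%), against 30.8%, and a body candidate in 28 (77.8%), against 42.4%. The peak between drr-2, a factor like eIF4H, and set-16 lay at chrIII:13643634-13643852, with a pooled signal of 663 (rank 47), rank 52 in replicate 1 and rank 46 in replicate 2. This was above every peak of the 62 genes. The peak at iff-2, which encodes eIF5A, at chrII:8561354-8561518, had a signal of 487 (rank 121) and rank 159 in replicate 2, but met no entry of replicate 1, whose nearest summit was 1987 bp away. Of 47 reproducible peaks without an entry of replicate 1, this was the only one among the 200 highest. The peaks at pab-2, for a poly(A)-binding protein (signal 294, rank 453), and at abcf-2, for an ABC-type ATPase (signal 258, rank 631), were met in both replicates. The summit of abcf-2 lay 907 bp upstream of it but 18 bp upstream of ant-1.1. A reproducible body summit was present in 4 of the 36 (11.1%), against 6.45% of the translation genes and 3.08% of all coding genes. They were pab-2, gcn-1, efk-1 and rsks-1, the last 3 of which encode regulators of translation or growth.

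Beside 2 other gene sets, the 62 translation genes had the lower promoter share and the higher body share. A reproducible promoter summit was present in 12.9% of the translation genes, 25.6% of 78 cytosolic ribosomal protein genes and 25% of 20 vacuolar proton pump genes. Among the genes with any promoter candidate these shares were 26.7%, 36.4% and 50%, and 13.6% over all coding genes. A body candidate was present in 82.3% of the translation genes, 46.2% of the ribosomal protein genes and 60% of the proton pump genes. Per kilobase of whole gene the order of body candidates turned round. There were 0.484 at the translation genes, 0.646 at ribosomal protein genes, whose median length was 753.5 bp, and 0.651 at proton pump genes. The first 200 bp, counted in the length but not in the body, weigh most in short genes. These differences between gene sets were not tested.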

How the data were processed

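ChIP-seq peaks of tagged CHD-7 were analysed for 2 biological replicates of whole worms in 1 group. Per the labels, sonicated chromatin was precipitated through the GFP tag. The authors deposited narrowPeak lists on ce11 for each replicate, for the pool of both (30000 entries each) and for reproducible peaks (1884). Not given in the sources used here are the peak caller, the aligner and the cutoff for reproducibility, and the control experiment was not analysed here. The deposited signal column was used only to rank entries within a list. The authors' −log10 q values were printed for a few peaks but not used for ranking, since 1350 reproducible peaks were tied at its highest value of 3.43. The lists hold no read counts, so depth and counting error are unknown.

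Summits (start plus the deposited offset) were set against the Ensembl release 115 annotation of WBcel235, which is the ce11 sequence. The 12 mitochondrial protein-coding genes were left out. The promoter window took in 1000 bp before and 200 bp after the annotated 5′ end. The rank of a peak in a replicate is that of its highest-ranked entry overlapping by at least 1 bp. Counts of genes are given beside the same count over all coding genes, with no test, since the samples form 1 group. The genes named were those with a reproducible summit in the window or body, the 6 next by pooled signal in the window and all eef- genes. Also named were the other pathway genes with a reproducible window summit, some of the genes sharing a window or summit with these, and chd-7 and unc-119. Further genes, such as those with no candidate or with a body summit among the pathway genes, were chosen after their values were seen. The members and lists were chosen with earlier results of these data known. Of 39 other pathway genes listed, 36 matched the annotation. Sequences were read from the WBcel235 genome with pysam 0.24.0, and counts were made with Python 3.11.15. The assignment of summits to promoter windows was tested on simulated, widely spaced genes. That to gene bodies, exons, shared windows and replicate entries was not tested in this way.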

Additional observations from a re-analysis of the deposited data

How the results depend on the processing

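The 8 translation genes with a reproducible promoter summit (12.9%, against 4.18% of all coding genes) became 7 (11.3% against 2.85%) with a window of 500 bp upstream and 100 bp downstream, 10 (16.1% against 6.17%) with 2000 and 500 bp, 9 (14.5% against 4.73%) with all transcript starts, 10 (16.1% against 4.67%) with whole intervals and 7 (11.3% against 2.37%) with the higher-signal 50% of peaks. They became 7 (11.3% against 3.76%) without summits near tRNA, snoRNA, snRNA or rRNA genes and 6 (9.68% against 3.75%) with microRNA genes added, a setting chosen after seeing the data. Leaving out summits in shared windows moved the promoter counts most, to 3 translation genes (4.84% against 2.71%). Of these, 3 were factors (9.68%), with eef-1A.2 the only elongation factor gene, and 0 were synthetases. This setting left 1 other pathway gene (2.78% against 2.71%), and 2 translation genes in bodies (3.23% against 2.79%). With replicate 1 alone there were 8 translation genes in promoters (12.9% against 3.72% of all coding genes) and 4 in bodies (6.45% against 3.59%). With replicate 2 alone there were 9 (14.5% against 4.59%) and 3 (4.84% against 2.72%). Any promoter candidate of the single replicate, in place of the pooled ones, was present at 29 genes (46.8% against 29.4%) for replicate 1. For replicate 2 this held for 32 (51.6% against 32.9%). By role, replicate 1 alone had a promoter summit at 7 factors (22.6%), 1 synthetase (3.23%) and 3 other pathway genes (8.33%), against 3.72%. Replicate 2 alone had one at 7 factors (22.6%), 2 synthetases (6.45%) and 4 other pathway genes (11.1%), against 4.59%. The gene aars-1 was lost without replicate 2. The wider window raised pooled promoter candidates to 46 genes (74.2% against 45.9%), and whole intervals raised body summits to 7 genes (11.3% against 3.9%). The higher-signal 50% of peaks left 1 gene in bodies (1.61% against 1.38%) and 1 synthetase in promoters (3.23% against 2.37%). The cause of these moves was not tested. The summits of eif-3.C and eef-1A.2 were kept under all 10 settings, and those of eif-2Bgamma and aars-1 under 7. Unknown depth limits every statement on weak candidates. No paired analysis was possible because there was 1 group and no test.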
